A study of Mus musculus with 6 samples.

Results

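The Notch pathway was followed in cultured astrocytes, glial cells that support neurons, through 10 of its genes: the receptors Notch1, Notch2 and Notch3, the ligands Jag1 and Dll1, and the target genes Hes1, Hes5, Hey1, Hey2 and Heyl. These genes were picked by name, with earlier results of these data known. Their counts beside the shares of all genes are therefore a description and not a test. All 10 had a single probe set with exactly 1 gene symbol, and they are 10 of the 19926 genes tested. The cultures were primary astrocytes of C57BL/6J mice, and no transgene or knockout is labelled in either group. The TNF group received tumour necrosis factor, an inflammatory cytokine, at 50 ng/mL and was collected after 24 h. The control group was collected at the same time, and the labels name no vehicle. Each group has 3 arrays, numbered 1 to 3, and the labels give neither the age of the mice nor whether replicates were separate cultures, so the spread behind each p-value is that of these samples and may be technical.

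Notch signalling passes between touching cells. A ligand of the Jagged or Delta-like kind on the sending cell binds a Notch receptor on its neighbour, ADAM proteases and then gamma-secretase cut the receptor, and its intracellular part enters the nucleus, where it joins the DNA-binding protein RBPJ and Mastermind-like coactivators. The complex switches on genes of the Hes and Hey families, which code for basic helix-loop-helix repressors of proneural genes. In the developing brain the pathway keeps neural stem cells undifferentiated and favours the glial fate, and astrocytes go on expressing several of its parts. The comparison bears on the study's question of whether inflammation turns astrocytes towards progenitor cells.

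With TNF, 3 of the 5 Hes and Hey target genes and the receptor Notch1 fell, and no member rose, in limma's test with Benjamini-Hochberg adjustment over all genes at an adjusted p under 0.05. Hey1 and Hey2 fell by more than 1 on the log2 scale, Hes1 by 0.83 and Notch1 by 0.54. Of all genes tested, 3.33% were called lower and 3.87% higher by the same rule. At an unadjusted p under 0.05, 5 members were lower and 0 higher, against 9.73% and 9.15% of all genes. The same-numbered arrays of the groups deviated together, so a fit with the replicate number as a block stands beside this: it called 5 members lower and 1 higher, where 11.8% and 9.73% of all genes were called. The calls it added were Notch2 as lower and Dll1 as higher. When control 1, control 2 or TNF 1 was left out, 2 members were called lower, Hey1 and Hey2 in each case. Within the 3 replicate pairs, 6 members were lower in every pair and 1 was higher in every pair, as were 26.9% and 25.7% of all genes. The median log2 difference over all 10 members was -0.21, against -0.0033 over all genes. The values are log2 signals per probe set. Signals of different genes are not compared, since probes differ in brightness, and array signals compress large differences.

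**Figure D1:**
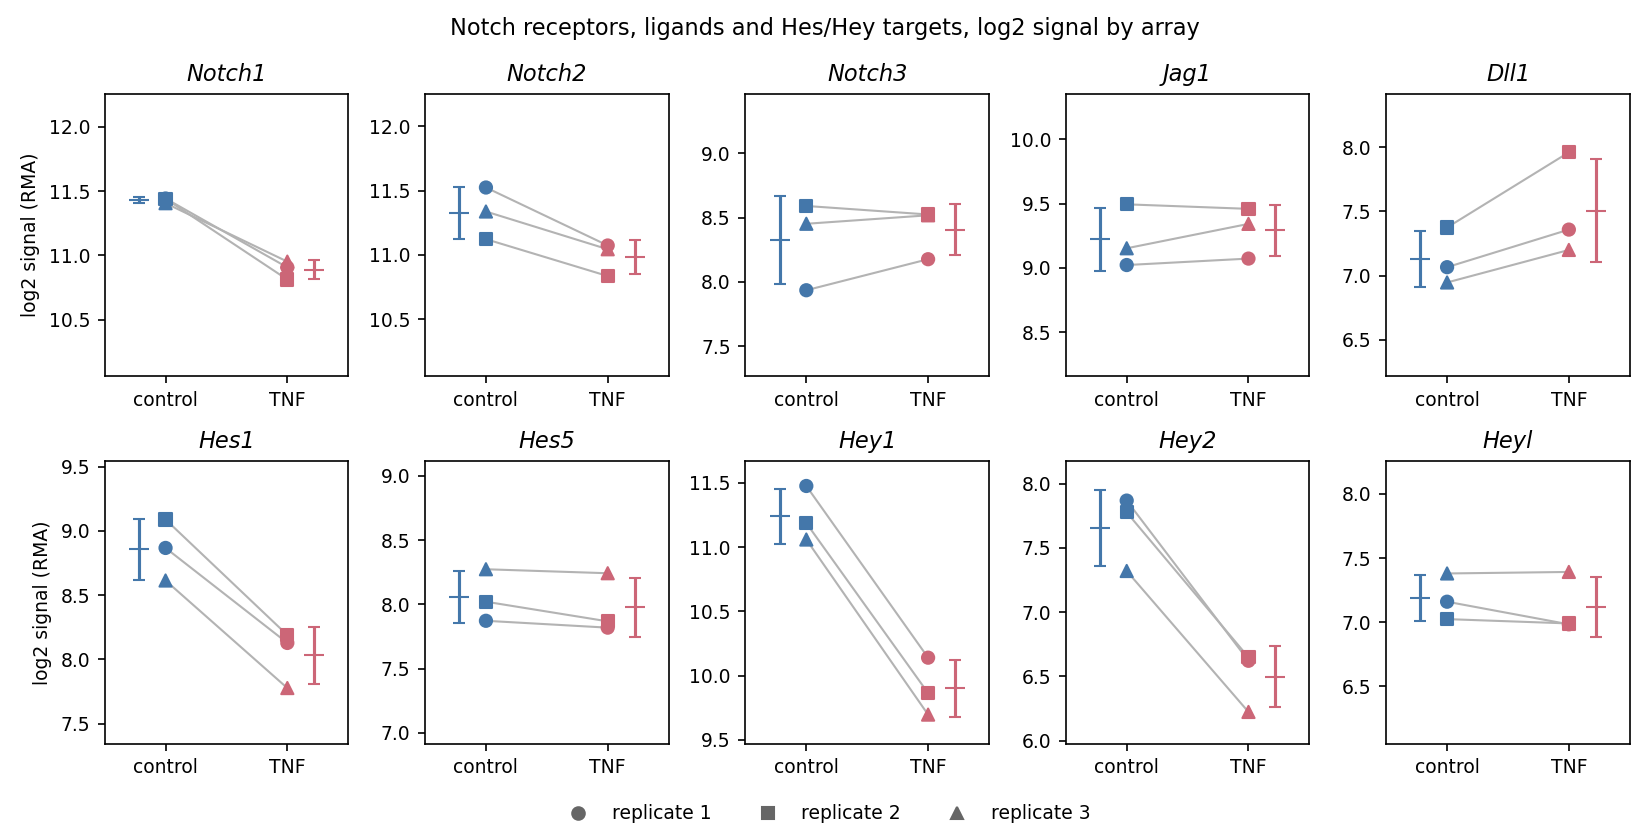
Each panel plots 1 gene, with the log2 signal on the vertical axis (each panel spans 2.2 log2 units) and the groups on the horizontal axis. Symbols are arrays, grey lines join the same replicate number, and the bars beside them are mean ± SD of 3 arrays. The lines of Hey1 run almost in parallel and end 1.32 to 1.36 lower, while those of Hes5 and Heyl are nearly flat.

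The astrocyte label was checked against 10 markers. Gfap, the intermediate filament of astrocytes, read 11.06 to 12.40, the glutamate transporter Slc1a3 read 12.17 to 12.80 and the water channel Aqp4 read 11.62 to 12.50 over the 6 arrays, in a table that runs from 2.04 to 14.37. S100b had low signals, from 5.89 to 6.74. Array medians lay between 7.14 and 7.18. In this bulk RNA, fewer cells of a type and less RNA per cell cannot be told apart.

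Of the ligands, Jag1, a ligand of the Jagged type that glia also make, did not pass. The control arrays 1, 2 and 3 read 9.02, 9.49 and 9.15, and the TNF arrays of the same numbers read 9.07, 9.46 and 9.34. The groups overlap almost fully, and replicate 2 is the highest in both. This gave a log2 difference of 0.07 (standard error, SE, 0.16, limma adjusted p = 0.937), with a 95% confidence interval from -0.31 to 0.44. An increase to 1.36 times the control or a fall to 0.808 times it therefore lies within the interval. The sign turned without control 1 (-0.03) and without TNF 2 (-0.02).

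Dll1, a Delta-like ligand that presents the signal in neural tissue, read 7.07, 7.38 and 6.95 in controls 1 to 3 and 7.36, 7.96 and 7.20 with TNF. Each TNF array lay above its own control, by 0.29, 0.59 and 0.25, although the groups overlap because control 2 was higher than TNF 1 and TNF 3. TNF minus control came to 0.38 on the log2 scale (SE 0.21, 95% confidence interval -0.12 to 0.87) with a limma adjusted p of 0.436. With the replicate number as a block the SE was 0.09 and Dll1 was called higher (limma adjusted p = 0.0275). Its difference was 0.15 without TNF 2 and 0.53 without TNF 3, and without both arrays of replicate 3 the block no longer called it (adjusted p = 0.0542).

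Notch1, the receptor best known for holding neural stem cells in their undifferentiated state, fell with little spread. Controls 1 to 3 read 11.44, 11.44 and 11.41, and the TNF arrays read 10.91, 10.81 and 10.95. The groups do not overlap and lie 0.45 apart at their nearest. The log2 difference of -0.54 (SE 0.10, limma adjusted p = 0.0180) puts the TNF signal at 68.8% of the control, with a 95% confidence interval from 58.5% to 80.9%. Leaving out any 1 array other than TNF 3 ended the call: adjusted p was 0.0566 without TNF 1, 0.0611 without control 3, 0.0679 without control 2, 0.0773 without control 1 and 0.0853 without TNF 2. Without both arrays of replicate 3 it was 0.0578 with no block and 0.0136 with the block. With the block and all arrays it was 0.00332. The difference itself ranged only from -0.57 to -0.50 over the fits without 1 array.

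Notch2, a relative of Notch1 that neural progenitors and glia also carry, read 11.52, 11.12 and 11.34 in controls and 11.07, 10.83 and 11.04 with TNF. All TNF arrays lay below all controls, but by only 0.05 at the nearest, between TNF 1 and control 2. The log2 difference was -0.34 (SE 0.14, limma adjusted p = 0.227), and the fit with the replicate block called it lower (adjusted p = 0.0223, and 0.0658 without both arrays of replicate 3). Within pairs it was -0.45, -0.29 and -0.29.

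Notch3, a receptor known above all from the mural cells of blood vessels and found in glia as well, did not pass. Its controls read 7.93, 8.59 and 8.45 and its TNF arrays 8.18, 8.52 and 8.52. Array 1 was the lowest in both groups, and 1 of the 3 pairs moved down. The log2 difference was 0.08 (SE 0.19, 95% confidence interval -0.36 to 0.53, limma adjusted p = 0.937), and it was -0.12 without control 1.

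The receptors were also compared with each other, through the change of their within-array log2 ratio, as part of 14 such pairs over all members of a family. The ratio of Notch1 to Notch3 was lower by 0.62 with TNF, with 0.78, 0.56 and 0.52 within pairs and no overlap of the groups. Of all pairs that the 19926 genes can form, 26.8% had ratios without overlap. An exact permutation test, two-sided over the 6 arrays, gave p = 0.10, which is the smallest that 3 against 3 arrays allow, and 0.156 after adjustment over the 14 pairs. It shuffled the arrays without regard to replicate number, whereas the SDs below are taken over replicate pairs. Notch1 and Notch2 differed by 0.20 in their response, with an SD over pairs of 0.13 (exact permutation p = 0.20), and Notch2 and Notch3 by 0.42 with an SD of 0.24 (exact permutation p = 0.40).

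**Figure D2:**
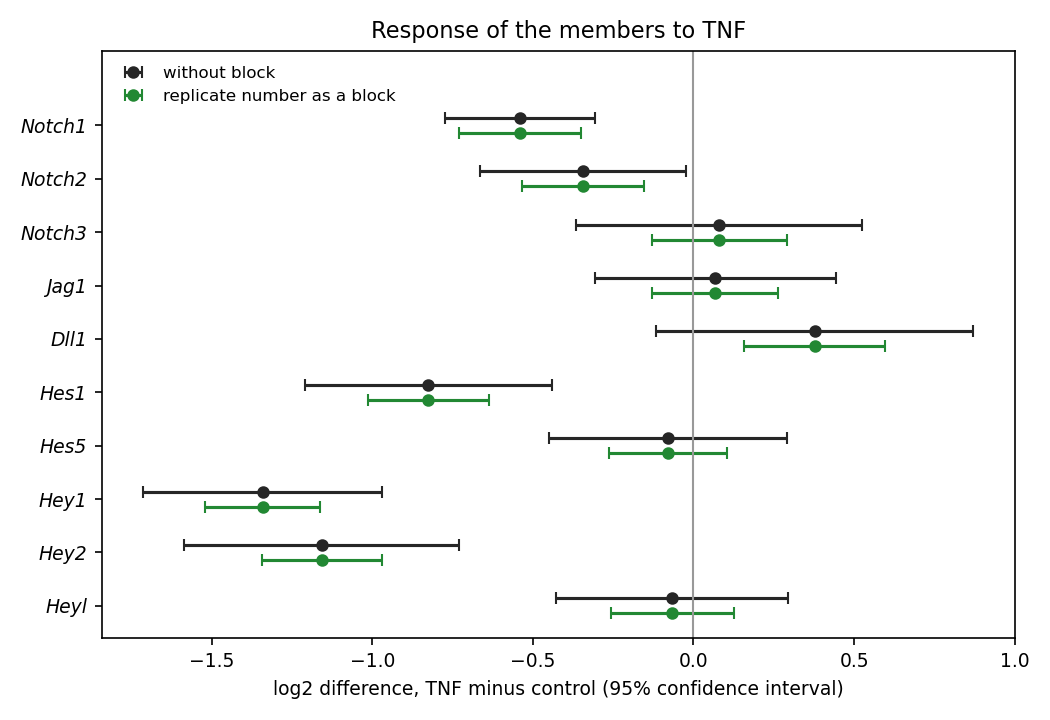
The log2 difference, TNF minus control, on the horizontal axis for each member, with its 95% confidence interval from limma without a block (black) and with the replicate number as a block (green). The points are the same in both fits because the pairs are balanced. The intervals of Notch1, Notch2, Hes1, Hey1 and Hey2 lie below 0 in both, and that of Dll1 clears 0 with the block, from 0.16 to 0.60.

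Hey1, a repressor induced by Notch in neural precursors and blood vessels, had the largest log2 difference of the members. Controls 1 to 3 read 11.48, 11.19 and 11.06, and the TNF arrays read 10.14, 9.86 and 9.70. Every TNF array was below every control, with 0.92 between the nearest. The log2 difference was -1.34 (SE 0.16, limma adjusted p = 0.00272), so that 39.5% of the control signal was left (95% confidence interval 30.5% to 51.1%). The differences within pairs were -1.34, -1.32 and -1.36, an SD of 0.02. The call held in all 6 fits without 1 array, with adjusted p from 0.00447 to 0.0137. Among the 663 genes called lower, Hey1 was number 81 by size.

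Hey2, its close relative with a known part in the developing heart and vessels and in progenitors of the inner ear, read 7.87, 7.78 and 7.32 in controls and 6.62, 6.65 and 6.22 with TNF. The groups do not overlap, and replicate 3 is the lowest in both. The log2 difference of -1.16 (SE 0.18, limma adjusted p = 0.00962) left 44.8% of the control signal (95% confidence interval 33.3% to 60.3%). Without control 1 the adjusted p was 0.0437, the highest of the 6 fits without 1 array.

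Hes1, the Notch target whose cycling level times the division of neural progenitors, read 8.87, 9.09 and 8.61 in controls and 8.13, 8.19 and 7.78 with TNF. The lowest control lay 0.42 above the highest TNF array. The log2 difference was -0.83 (SE 0.17, limma adjusted p = 0.0242), or 56.4% of the control signal (95% confidence interval 43.2% to 73.7%), and within pairs it was -0.74, -0.90 and -0.84. The call was lost without TNF 3 (adjusted p = 0.0507), without TNF 1 (0.0571), without control 2 (0.0777) and without control 1 (0.0900), and also when p was adjusted over all probe sets of the array (0.0614). With the block and all arrays it was kept (limma adjusted p = 0.000491).

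Hes5, a target widely used as a readout of Notch activity in the embryonic brain, did not pass. Its controls read 7.87, 8.02 and 8.27 and its TNF arrays 7.82, 7.87 and 8.24, so replicate 3 was the highest in both groups and the ranges overlap. A log2 difference of -0.08 resulted (SE 0.16, limma adjusted p = 0.922). Its 95% confidence interval ran from 73.2% to 122% of the control, and that of Hes1, from 43.2% to 73.7%, overlaps its lower edge. The sign turned without control 3 (0.03).

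Heyl, the third Hey gene, likewise did not pass. Controls read 7.16, 7.02 and 7.38, and TNF arrays 6.98, 6.99 and 7.39. Its log2 difference was -0.07 (SE 0.16, limma adjusted p = 0.936) with a 95% confidence interval from -0.43 to 0.29. It was 0.0032 without TNF 1 and 0.03 without control 3. Heyl, Hey2 and Dll1 were the 3 members left out when genes below the median signal were dropped, and no detection calls were used, so a low signal may lie near background.

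Within the Hes and Hey family, 8 of the 10 gene pairs had within-array ratios that did not overlap between the groups, against 26.8% of all gene pairs, each with an exact permutation p of 0.10 (0.156 adjusted over the 14 pairs). These pairs share genes and are not independent. The count partly restates the calls above, with 3 of these 5 genes lower and 2 not past the threshold. The ratio of Hey1 to Hes5 was lower by 1.26 with TNF, that of Hey1 to Heyl by 1.27 and that of Hey2 to Heyl by 1.09, with SDs over pairs of 0.08, 0.11 and 0.02. The ratio of Hes1 to Hes5 was lower by 0.75 and that of Hes1 to Heyl by 0.76, while that of Hes1 to Hey1 was 0.52 higher. The 2 pairs whose ratios overlapped were Hey1 with Hey2, which differed by 0.18 with an SD of 0.09 (exact permutation p = 0.30), and Hes5 with Heyl, which differed by 0.01 with an SD of 0.12 (p = 0.90, exact). No pair passed after adjustment, and 3 against 3 arrays could not do so.

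The profiles over the 6 arrays were also set side by side by their root mean square distance, after each gene's own mean was subtracted. The nearest member to Hey1 was Hey2, at 0.16 log2 units, and the nearest to Hes5 was Heyl, at 0.084. Notch3 and Jag1 were nearest to each other, at 0.12, and Notch1 and Notch2 likewise, at 0.16. Of all genes tested, Cd59b (0.056), the receptor phosphatase Ptprm (0.067) and Ptar1 (0.071) lay nearest to Hes1, with log2 differences of -0.86, -0.83 and -0.87. Nearest to Hey1 were the imprinted zinc finger gene Peg3 (0.080), Acss1 (0.089), which makes acetyl-CoA in mitochondria, and the endocytic receptor Lrp2 (0.11), with differences of -1.27, -1.26 and -1.52. All 6 passed the limma threshold as lower, which follows from picking them by likeness to Hes1 and Hey1 on the same arrays.

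Promoter windows, from 250 bases before to 50 after a transcript start, were matched for 7 of the 10 members in RefSeq's table (GRCm38.p6). Hes1, Hey1 and Heyl were not matched. The windows were searched on both strands for TGGGAA, the core of the RBPJ site. The windows of Hes5 and Hey2 are shown because they hold the same number of matches while Hey2 passed the test as lower, at 44.8% of control, and Hes5 did not, at 94.7%. Capitals mark TGGGAA or its reverse complement TTCCCA. The Hes5 window is chr4:154960673-154960972 on the plus strand and the Hey2 window chr10:30842734-30843033 on the minus strand, both GRCm38.p6 and written 5′ to 3′ along the gene.
Hes5: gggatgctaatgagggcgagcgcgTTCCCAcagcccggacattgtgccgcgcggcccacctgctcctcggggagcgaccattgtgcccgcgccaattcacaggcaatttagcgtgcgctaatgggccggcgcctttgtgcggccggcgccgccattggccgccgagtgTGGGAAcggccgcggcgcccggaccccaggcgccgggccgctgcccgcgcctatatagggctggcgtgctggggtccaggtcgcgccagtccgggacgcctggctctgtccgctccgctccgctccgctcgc
Hey2: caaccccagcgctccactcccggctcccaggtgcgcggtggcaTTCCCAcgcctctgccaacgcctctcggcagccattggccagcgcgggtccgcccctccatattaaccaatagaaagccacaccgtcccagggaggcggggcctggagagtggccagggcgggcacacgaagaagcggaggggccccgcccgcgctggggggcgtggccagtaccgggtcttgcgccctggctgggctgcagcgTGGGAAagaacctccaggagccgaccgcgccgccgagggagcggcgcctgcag

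Each of these windows holds 2 matches, 1 on each strand. In Hes5 they begin 226 and 82 bases before the start, and in Hey2 207 and 3 bases before it. At least 1 match was present in 25.6% of the 32851 windows of the table and 2 or more in 3.79%. The windows of Notch1, Notch2, Notch3, Jag1 and both of Dll1 hold none. The N-box CACNAG, a sequence bound by Hes proteins, occurs in windows of Notch1, Notch2, Notch3 and Dll1 (in 42.5% of all windows), and the E-box CACGTG in no window of a member (7.15% of all). A match describes these letters and is not evidence of a binding site.

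The other genes of the pathway, 64 measured of 70 listed, moved in both directions: 5 rose and 2 fell in limma's test, and their median log2 difference was -0.02. The shares of all genes called were 3.87% higher and 3.33% lower. With the replicate number as a block 7 were higher and 13 lower, against 9.73% and 11.8% of all genes. The groups did not overlap in 22 of the 64, against 24.0% of all genes.

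**Figure D3:**
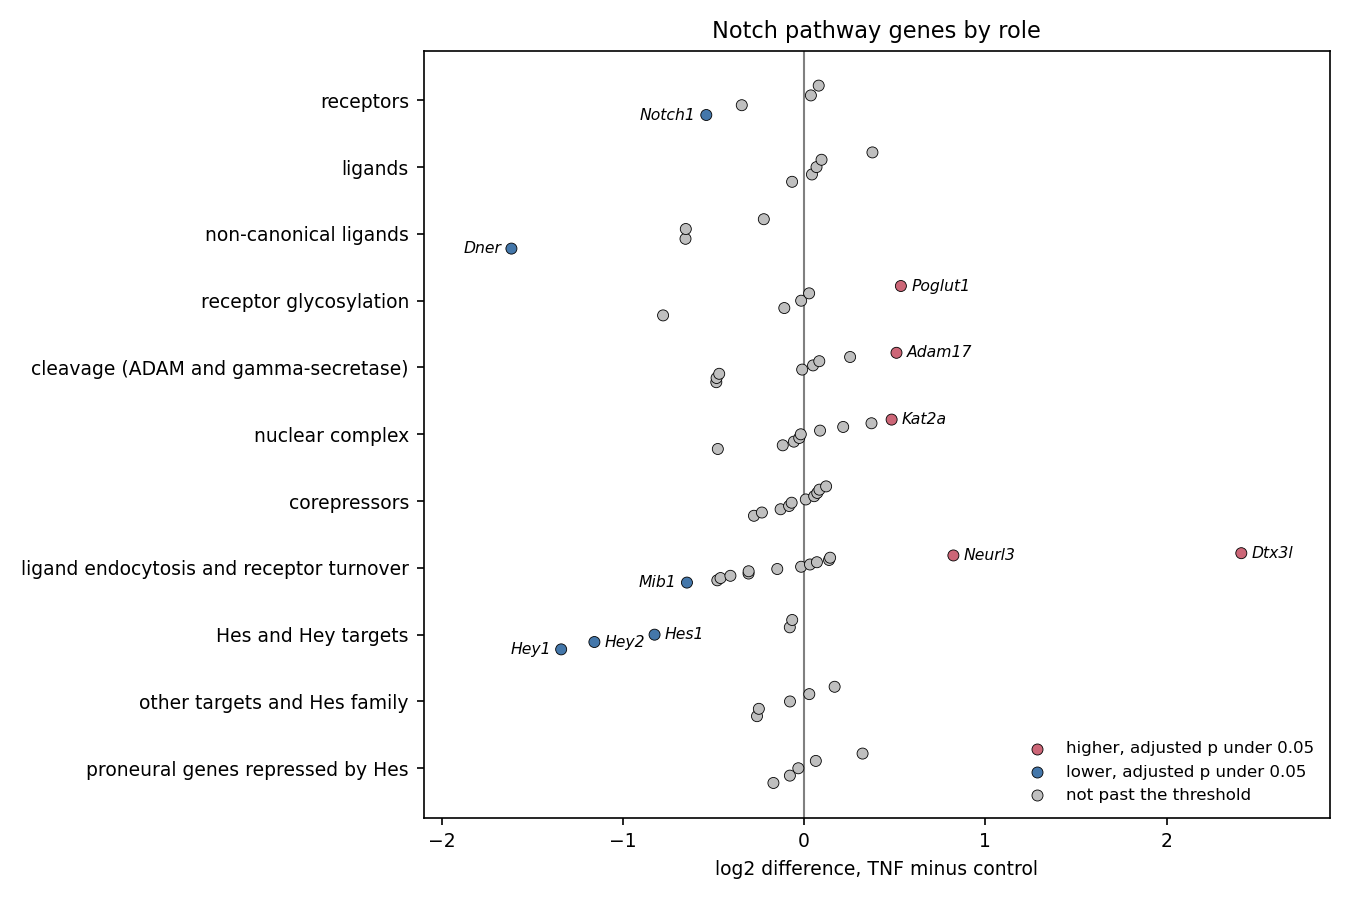
Each point is 1 of the 74 Notch pathway genes measured, members included, placed by its log2 difference (TNF minus control, horizontal axis) in the row of its role, with a small vertical offset to separate points. Coloured points passed limma's test at an adjusted p under 0.05 and are named. Dtx3l stands at 2.41 and Dner at -1.62, and the named Hes and Hey genes lie between -1.34 and -0.83.

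Among the remaining receptors and ligands, Notch4 (0.04, adjusted p = 0.969), the endothelial ligand Dll4 (0.10, adjusted p = 0.870), Jag2 and Dll3 did not pass, so of all 5 canonical ligands 0 were higher and 0 lower in limma, with 0 in either direction at an unadjusted p under 0.05 and 1 higher (Dll1) with the block. In the list of non-canonical ligands, 1 of 4 measured fell in limma, Dner. At an unadjusted p under 0.05, 3 were lower and 0 higher, against 9.73% and 9.15% of all genes. With the block 3 were lower and 0 higher, where 11.8% and 9.73% of all genes were called. The calls it added were Dlk1 and Cntn1, each at -0.65 (limma adjusted p = 0.0154 and 0.00699 with the block). Dner, a transmembrane protein with EGF repeats that binds Notch and acts on glia of the cerebellum, read 11.27, 11.92 and 11.68 in controls and 9.50, 10.66 and 9.86 with TNF. Its groups lie 0.61 apart at the nearest, and its log2 difference was -1.62 (SE 0.30, limma adjusted p = 0.0174), or 32.6% of the control. The call was lost without control 2 (adjusted p = 0.0602), without control 3 (0.0571) and without both arrays of replicate 3 (0.162). With the block it was kept, both with all arrays (limma adjusted p = 0.000162) and without replicate 3 (0.00186).

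In the list of enzymes that add sugars to the receptor, Poglut1, which puts O-glucose on its EGF repeats, rose from 10.35 ± 0.08 to 10.88 ± 0.09 (mean ± SD, n = 3 per group), a log2 difference of 0.53 (limma adjusted p = 0.0255). Lfng, the lunatic fringe enzyme that tunes which ligands a receptor answers, was named after its values were seen. Controls read 10.79, 9.84 and 10.35 and TNF arrays 10.20, 8.89 and 9.56. The groups overlap, but each TNF array lay below its own control, and the log2 difference of -0.78 (adjusted p = 0.288) was called lower under the block (adjusted p = 0.00133).

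The proteases that cut Notch at the membrane gave opposite signs. Adam17, which also releases TNF from cells, rose from 9.53 ± 0.11 to 10.04 ± 0.08 (log2 difference 0.51, limma adjusted p = 0.0335). Adam10, the usual protease of ligand-bound Notch and named after its values were seen, read 10.49, 10.61 and 10.84 in controls and 10.11, 10.22 and 10.15 with TNF (log2 difference -0.48, adjusted p = 0.0578, and 0.00958 with the block). Of the 8 measured cleavage genes 1 rose and none fell in limma (3.87% and 3.33% of all genes). At an unadjusted p under 0.05, 2 were higher and 3 lower (9.15% and 9.73% of all genes). With the block 1 was higher and 3 lower (9.73% and 11.8% of all genes). The added ones, besides Adam10, were the gamma-secretase subunits Aph1b (-0.48) and Aph1c (-0.47), close copies whose probes may share signal.

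Of the 9 genes of the nuclear complex 1 rose and none fell in limma (3.87% and 3.33% of all genes). At an unadjusted p under 0.05, 2 were higher and 1 lower (9.15% and 9.73% of all genes). The block gave the same counts, where 9.73% and 11.8% of all genes were called. Rbpj, the DNA-binding partner of the receptor, read 9.83, 9.71 and 9.87 in controls and 9.75, 9.80 and 9.68 with TNF (log2 difference -0.06, limma adjusted p = 0.914). Kat2a, a histone acetyltransferase of the activating complex, rose by 0.48 (adjusted p = 0.0440). None of the 10 corepressor genes passed in limma's test (0 also at an unadjusted p under 0.05 and 0 with the block). Tle1, a Groucho-type partner of Hes proteins, had the smallest p of them, at -0.23 (adjusted p = 0.572).

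In the list of 14 ubiquitin ligases and adaptors, Dtx3l and Neurl3 rose and Mib1 fell, where 3.87% and 3.33% of all genes did. At an unadjusted p under 0.05, 2 were higher and 6 lower (9.15% and 9.73% of all genes). With the block 2 were higher and 5 lower (9.73% and 11.8% of all genes). Dtx3l, a Deltex-family ubiquitin ligase known from interferon and DNA damage responses, rose from 8.72 ± 0.10 to 11.14 ± 0.20 (n = 3 per group), 5.32 times the control (limma adjusted p = 7.34e-05), and stayed called in all 6 fits without 1 array. Neurl3, of the Neuralized family, read 6.83, 6.81 and 7.001 in controls and 7.39, 7.77 and 7.95 with TNF (log2 difference 0.82, adjusted p = 0.0205). Its signal was low, and it was left out when genes below the median signal were dropped. Mib1, the ligase that drives ligand uptake in the sending cell, read 9.50, 9.65 and 9.31 in controls and 8.94, 8.98 and 8.60 with TNF (log2 difference -0.65, adjusted p = 0.0396). The block added Neurl1b, Numb, Numbl and Dtx1 as lower, with differences from -0.48 to -0.31. Numb and Numbl are adaptors that oppose Notch in dividing precursors.

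Of the calls among these other pathway genes, those of Poglut1, Adam17, Kat2a and Mib1 were lost in all 6 fits without 1 array (highest adjusted p 0.109, 0.135, 0.164 and 0.134). Neurl3 lost its call without control 1 (0.0854), control 2 (0.0746) or TNF 2 (0.0785). Those fits and the ones that follow had no block. With the block and all arrays, Poglut1, Adam17, Kat2a, Mib1 and Neurl3 stayed called (limma adjusted p = 0.00269, 0.00426, 0.00440, 0.00139 and 0.00156). They also did with the block and without replicate 3, a fit added after the data were seen (0.0182, 0.0285, 0.0265, 0.0114 and 0.0134). Fits that dropped control 1 or TNF 2 called 1 of the 64 higher and 1 lower, and fits that dropped TNF 1 or TNF 3 called 2 and 1. Dropping control 2 left 1 and 0, control 3 left 2 and 0, and both arrays of replicate 3 left 1 and 0.

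Further Hes family genes and Nrarp, a feedback inhibitor, held no call (0 of 5 in limma, 0 at an unadjusted p under 0.05 and 0 with the block). Hes6, which counteracts Hes1, had the smallest p, at -0.25 (adjusted p = 0.405). Of the proneural genes that Hes proteins repress, 0 of 5 measured passed in limma. Neurod4 read 3.93, 4.06 and 4.18 in controls and 4.36, 4.45 and 4.33 with TNF, among the low signals of the array (log2 difference 0.32, adjusted p = 0.159). It was the 1 proneural gene at an unadjusted p under 0.05 and the blocked fit called it higher (adjusted p = 0.0404). Neurog1, Neurog2, Neurod1 and Atoh1 differed by -0.17 to 0.06.

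Other cell types of such cultures carry Notch genes too, above all endothelial and mural cells. The counts below stand beside these shares of all genes. In limma 3.33% were called lower and 3.87% higher, and with the block 11.8% and 9.73%. At an unadjusted p under 0.05 the shares were 9.73% and 9.15%. Of 12 endothelial markers 2 fell (Kdr at -0.91 and Ocln at -0.83), and the list mean per array ranged from 6.34 to 6.57 in controls and 6.15 to 6.53 with TNF. Of 16 fibroblast and mural markers 1 fell (Acta2 at -0.96), with list means of 7.59 to 7.88 and 7.37 to 7.87. Among 12 microglia markers none passed in limma (1 higher at an unadjusted p under 0.05, 2 higher with the block), and list means were 6.40 to 7.48 and 6.49 to 7.47. Of 12 neuron markers 2 fell (Map2 and Syp), of 11 oligodendrocyte and precursor markers 1 fell (Olig1 at -1.21), and of 8 ependymal markers 1 rose (Rarres2 at 1.67). With the block, 3 neuron markers were lower and 1 higher, and 2 ependymal markers lower and 1 higher. The endothelial and oligodendrocyte counts stayed at 2 and 1 lower. Of the 10 astrocyte markers 3 fell, Glul at -0.88, Gja1 at -1.002 and Aldoc at -1.01, and list means were 11.02 to 11.32 and 10.64 to 10.91. At an unadjusted p under 0.05, 2 of these 10 were higher and 4 lower, and the block called 2 higher and 6 lower. The 2 higher ones were Aqp4 and Slc1a2, a further glutamate transporter, each at a log2 difference of 0.60 with no overlap of the groups. Their limma adjusted p was 0.0718 for Aqp4 and 0.0617 for Slc1a2, and 0.00690 and 0.0123 under the block. Sox9, at -0.76 with no overlap of the groups, was lower at an unadjusted p under 0.05. Its limma adjusted p was 0.0587, and 0.00117 under the block. The block also called Gfap (-0.51) and S100b (-0.40) lower (limma adjusted p = 0.00356 and 0.0364). The part of any of these in the fall of the Hes and Hey genes was not tested.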

How the data were processed

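Affymetrix Mouse Gene 1.0 ST arrays measured the RNA of 6 samples, 1 array per sample. The deposited table holds log2 values, made with RMA (background correction, quantile normalization and probe summary) per the submitters' processing notes, which give no versions. The log base was read from the values. Probe sets with exactly 1 symbol in the platform annotation (21777 of 35544) were kept. Taking the highest mean per gene left 19926 genes.

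TNF was compared with control in limma 3.58.1 under R 4.3.3, two-sided, with no block, over all genes, with 4 residual and 3.70 prior degrees of freedom. Groups and numbers come from sample titles. Deviations of equally numbered arrays correlated at 0.55, 0.65 and 0.75, so the numbers were taken as pairs. A blocked fit, with 2 residual degrees of freedom, stands beside results whose call it altered. Fits that left out 1 array had no block, so calls lost there were not tested with the pairing kept. No set test was run. Python 3.11.15 with pandas 2.3.3 was used for tables and plots, and the fit was tested on simulated data.

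Named genes were all members, other listed pathway genes past the threshold, the smallest p of each role list, and the 3 profiles nearest to Hes1 and to Hey1. Members and lists were chosen with earlier results of these data known. The number of arrays limits the precision.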

Additional observations from a re-analysis of the deposited data

How the results depend on the processing

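The settings tried were 2 other scalings, 2 filters on low signal, trended and robust variance, weighted arrays, the replicate block, a different choice of probe set, all probe sets at once, arrays left out and adjusted p under 0.01. Of the members 4 fell and 0 rose. Leaving out arrays gave 2 to 3 lower and 0 higher, the replicate block gave 5 and 1, and adjusted p under 0.01 left 2 (Hey1 and Hey2). For the other pathway genes, 5 higher and 2 lower, arrays left out gave 1 to 2 and 0 to 1. The block gave 7 and 13, all probe sets 1 and 1, adjusted p under 0.01 gave 1 and 0, and array weights 6 and 4. Dropping genes below the median signal gave 5 lower. Over all genes, 771 and 663, the block gave 1938 and 2351, arrays left out 401 to 669 and 231 to 455, adjusted p under 0.01 gave 386 and 195, and all probe sets 436 lower. The replicate block without replicate 3, added after the data were seen, gave 4 lower and 0 higher members, without Notch2 (adjusted p = 0.0658) and Dll1 (adjusted p = 0.0542), 6 and 10 other pathway genes and 1250 and 1451 genes in all. With all arrays, the pairing by number changed no other call of a member than those of Notch2 and Dll1. Without replicate 3 it changed that of Notch1 (limma adjusted p = 0.0578 with no block and 0.0136 with it).

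Signs turned in 6 genes, none of them called. With 1 array left out, log2 differences ran from -0.12 to 0.21 for Notch3, -0.032 to 0.20 for Jag1, -0.21 to 0.030 for Hes5, -0.20 to 0.030 for Heyl, -0.091 to 0.14 for Notch4 and -0.021 to 0.18 for Dll4. With array weights Notch4 was -0.016 and Dll4 -0.0037, and without replicate 3 Notch4 was -0.038 with and without the block. Low signals limit what can be said of Heyl, Hey2, Dll1, Neurl3 and Neurod4.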
